A study of Zea mays with 9 samples.

Results

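The comparison set dissected endosperm of 10 days after pollination (DAP) against dissected endosperm of 8 DAP, the interval in which a maize kernel starts to fill with storage protein and starch. It used 2 of the 9 RNA-seq libraries of a course that ran from unpollinated kernels at 0 DAP through whole kernels of 2, 3, 4 and 6 DAP to endosperm of 8, 10 and 12 DAP. Both samples came from the reference inbred B73, grown in a greenhouse and self-pollinated. In both, the base of the kernel, from pedicel to hilum, was cut off and the pericarp was opened, so that the endosperm could be taken out without embryo or pericarp. Poly(A) RNA, selected in 2 rounds, was sequenced on the SOLiD 4 system. Of the 3 biological replicates collected at each stage, 1 was sequenced, so each side of the comparison is 1 library and no replicate test could be made. A 0 DAP sample was sequenced in 2 technical replicates, the only pair of libraries in the course made from the same RNA.

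The endosperm is the nourishing tissue of the cereal grain. After a phase of nuclear division and cell formation its central cells turn to storage: zeins, the prolamin storage proteins of maize, are made on the endoplasmic reticulum and packed there into protein bodies, while sucrose from the mother plant is cleaved, turned into ADP-glucose and built into starch in plastids called amyloplasts. Specialised layers surround this storage tissue, among them the basal transfer layer, which takes up sugars from the mother plant, the embryo-surrounding region and the aleurone. The bZIP factor opaque2 (o2) is a well-known activator of zein genes.

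The deposited tables hold raw counts for 110028 gene models. The 8 DAP library had 17915299 counted reads and the 10 DAP library 30091846. Counts concentrated in few models at 10 DAP: the 10 most counted models held 7.10% of the reads at 8 DAP and 23.5% at 10 DAP, and the 100 most counted held 19.6% and 55.5%. The level used below is the CPM, the count scaled to a fixed library size, after edgeR's TMM scaling over the 9 libraries ("scaled CPM"), a scaling meant to make the bulk of genes comparable when a few take a large share. Plain CPM by library total is given beside it where the choice matters, because the 10 DAP to 8 DAP ratio of every gene is 2.02 times smaller by library total. The most counted models at 8 DAP show the difference: elfa2, an elongation factor of translation, was at 9414 scaled CPM at 8 DAP and 9245 at 10 DAP, but at 10050 and 4885 CPM by library total. The unnamed models GRMZM2G301096 (12170 and 11830 scaled CPM), GRMZM2G002059 (10130 and 9848), GRMZM2G457226 (8094 and 8014) and GRMZM2G001327 (7064 and 7072) were as close between the stages on the TMM scale. Log2 changes are of scaled CPM + 1.

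Markers of the endosperm layers and of the tissues cut away were both counted in the dissected tissue. The basal transfer layer, embryo-surrounding and aleurone lists described below were present at both stages. Of 24 models on the embryo list, 6 had no read at 8 DAP and 7 had none at 10 DAP; lec1, wus1, wus2 and glb2 had none at either stage, and kn1, the shoot meristem homeobox gene, had 11 and 5 reads. The list summed to 119 scaled CPM at 8 DAP and 365 at 10 DAP, mostly through ole1, an oleosin of oil bodies, at 62.7 and 239. Of its 11 detected models 8 lay above 0 in log2 change and 3 below, where 17326 of all 35002 detected models lay above 0. By library total 6 lay above and 5 below, where 5647 of the 35002 lay above. Another oleosin, ole17, was at 2.61 and 24.9 and was the 1 model called. On the list of maternal and floral MADS-box genes, 28 models summed to 543 and 424, against 2142 to 3376 in the whole kernels of 0 to 6 DAP. Of 17 green tissue models, 12 had no read at 8 DAP and 10 had none at 10 DAP, and OEE3, a photosystem II protein, was the only one detected, at 41.6 and 22.8. Fewer cells of a type and less RNA per cell cannot be told apart in such bulk samples.

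A model was called higher or lower when (scaled CPM + 1) differed at least 4-fold, the higher value was at least 10 scaled CPM, and the 95% interval of the ratio of the counts excluded 1. That level of 10 stood for 191 reads at 8 DAP and 159 at 10 DAP. Intervals and limits below cover counting error only. Of 35002 models detected at 1 scaled CPM or more at either stage, 401 (1.15%) were higher at 10 DAP and 304 (0.869%) were lower, 705 (2.01%) in all, while 14712 reached the level of 10. Between the technical replicates of 0 DAP, 77 of 35027 models (0.22%) differed by the same rule; that pair holds no biological spread. By library total 210 models (0.6%) were higher and 1147 (3.28%) lower, 3.88% of detected models in all. All 210 are among the 401, and all 304 are among the 1147. Both were fixed in advance, since library totals move the 10 DAP to 8 DAP ratio of every gene down by the same factor. Of the 57 higher models with a usable gene name, 37 also passed by library total and 20 did not: wx1, ole17, fl1, GFT1, mde1, opr5, si1, sfp1, TAR3, P4H4, bt1, o2, lkrsdh1, EREB46, pdc2, BCH2, pip2e, o10, ss1 and a model named GTPase. All 14 lower models with a name passed on both scales, as every lower model had to.

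**Figure D1:**
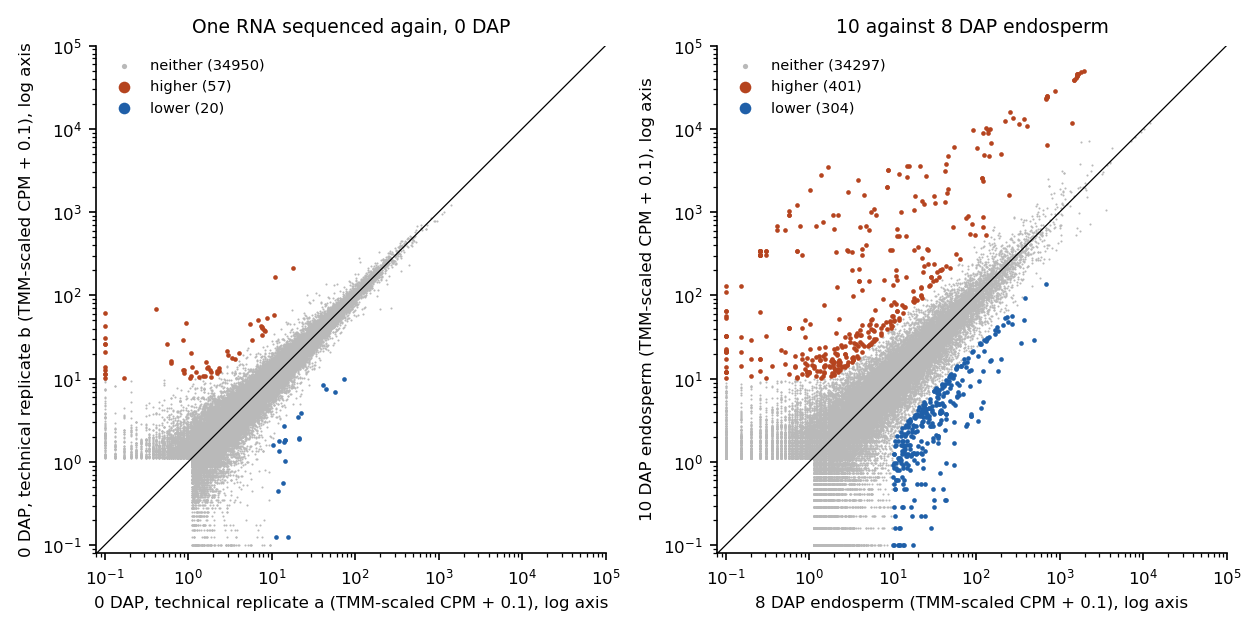
Level of every detected model in the pair of 0 DAP technical replicates (left) and in 8 and 10 DAP endosperm (right), each axis in TMM-scaled CPM + 0.1 on a log scale, 1 library per axis; coloured points passed the rule of size and the line marks equal levels. The technical pair holds 77 coloured points and the endosperm pair 705, with the higher models reaching much farther from the line than the lower ones.

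On the TMM scale the rises were larger than the falls, which for the medians turned round by library total. Among the 401 higher models the median log2 change was 3.48 and the largest 10.39, and 84 models rose at least 64-fold on the (scaled CPM + 1) scale. Among the 304 lower models the median size was 2.67 and the largest 5.15, and 0 models fell 64-fold on that scale. There a fall cannot exceed the 8 DAP level + 1. The upper quartile of that level was 48.9 scaled CPM, so most of the 304 could not fall 64-fold. By library total the medians of the same models were 2.60 for the higher and 3.31 for the lower, and the largest 9.41 and 5.44. The higher models together took 3.47% of the reads at 8 DAP and 51.3% at 10 DAP, and the lower ones 1.59% and 0.114%. For models between 10 and 100 scaled CPM, the SD of the log2 ratio was 0.86 between the endosperm stages and 0.33 between the technical replicates; above 100 it was 1.31 and 0.23.

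The higher models had a median between 2.07 and 2.60 scaled CPM in the kernels of 0 to 4 DAP. Their median was 0.494 at 6 DAP, 3.35 at 8 DAP, 65.5 at 10 DAP and 92.4 at 12 DAP. Of the 401, 260 had their highest value of the 8 stages at 12 DAP, 110 at 10 DAP and 31 at 6 DAP or earlier. These medians and highest stages are on the TMM scale, with factors of 1.07 at 8 DAP, 0.528 at 10 DAP and 0.156 at 12 DAP. By library total, 12 DAP values are smaller beside those of the other stages, and highest stages were not counted on that scale. The lower models had a median of 9.35 scaled CPM at 6 DAP, 25.5 at 8 DAP, 2.99 at 10 DAP and 3.61 at 12 DAP. For 196 of the 304, 8 DAP was the highest stage, for 95 it was a stage up to 6 DAP and for 13 it was 12 DAP. The stages up to 6 DAP are whole kernels, so a step from 6 to 8 DAP is also a change of tissue.

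The 19-kDa and 22-kDa alpha-zeins, the bulk storage proteins of the maize grain, had the largest median change of the lists examined. All 24 matched models were higher at 10 DAP, against 1.15% of detected models, and their median log2 change was 5.60 against -0.01 over all detected models. By library total all 24 passed as well, with a median of 4.59 against -0.81. Summed over the 24, the level was 9579 scaled CPM at 8 DAP and 337100 at 10 DAP, which was 1.02% and 17.8% of all counted reads. The alpha-zein copies are nearly identical and the files do not say how reads that match several were counted, so the split between copies is uncertain, and so is how often a read enters the sum.

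Within the family, the fold varied between the subfamilies that the model names give. The 11 z1C1 models were at 2.14 to 253 scaled CPM at 8 DAP and 602 to 16010 at 10 DAP, 39.9-fold to 429-fold higher with a median of 68.2-fold. The 6 z1A models were at 0.941 to 1642 and 45.03 to 45480, which is 26.6-fold to 47.9-fold higher with a median of 33.6-fold. The 3 z1B models were 22.3-fold, 103-fold and 167-fold higher. Differences between copies were described only, since copies share reads and are not replicates.

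Single alpha-zeins illustrate the range. The steepest, z1C1_13, had 41 reads at 8 DAP and 14602 at 10 DAP, or 2.14 and 918 scaled CPM (429-fold, interval 316 to 597). z1B_9 was at 21.1 and 3529 scaled CPM (167-fold, interval 152 to 185), z1C1_6 at 92.5 and 9721, z1B_7 at 45.6 and 4685, and z1C1_11 at 5.17 and 602. These named models had the largest ratios of (scaled CPM + 1) among all 57 higher models with a usable gene name. The other named models among the 15 with the largest ratios on that scale were z1C1_5, z1C1_4, z1C1_7, z1C1_8, z1C1_2, z1C1_1, z1C1_19, z1A1_8 and z1C1_12, all alpha-zeins at 39.9-fold to 72.6-fold, and the 50-kDa gamma-zein gz50. fl2, the 22-kDa alpha-zein altered in the floury2 mutant, was at 374 scaled CPM at 8 DAP and 13170 at 10 DAP (35.3-fold, interval 34.5 to 36.1), and reached 102000 at 12 DAP. fl4, a 19-kDa alpha-zein known from the floury4 mutant, was at 1500 and 38410 (25.6-fold). z1A1_5 was the named model with the most counts at 10 DAP, at 1642 and 45480 scaled CPM, and z1A1_7 was at 1636 and 43440. Both, like fl4 and z1A2_1, had counts within 2% of another model's in every library.

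**Figure D2:**
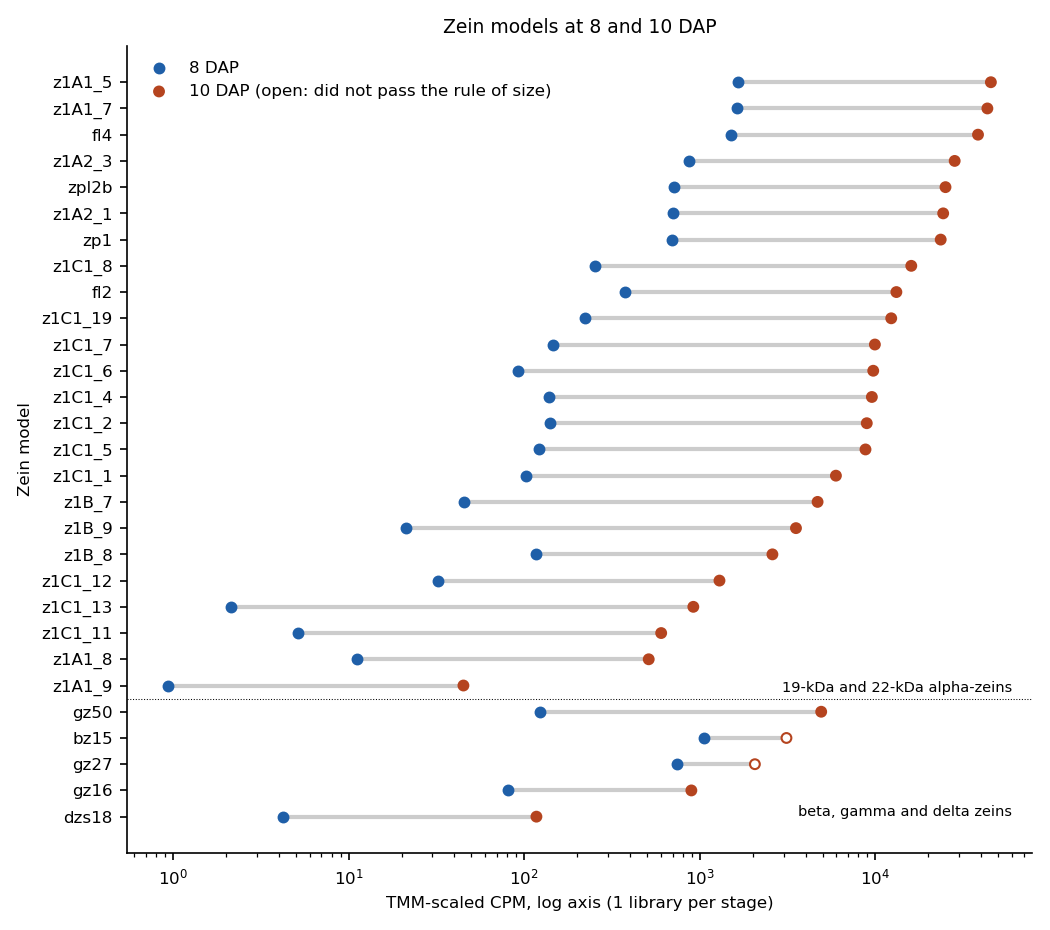
Level of each of the 24 alpha-zein models and the 5 other zein models at 8 DAP (blue) and 10 DAP (red) in TMM-scaled CPM on a log axis, 1 library per stage. All 24 alpha-zeins moved by 22.3-fold or more, whereas the beta-zein bz15 and the gamma-zein gz27, drawn as open points, were less than 3-fold apart. Both stood above 700 scaled CPM at 8 DAP, but so did some alpha-zeins, among them z1A1_5 at 1642 and fl4 at 1500.

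The zeins of the other classes differed in whether they passed. Of 5 detected beta-, gamma- and delta-zeins 3 were higher at 10 DAP, against 1.15% of all detected models, and 2 did not pass the rule. The 50-kDa gamma-zein gz50 was at 123 scaled CPM at 8 DAP and 4913 at 10 DAP (40.0-fold, interval 38.4 to 41.7). The 18-kDa delta-zein dzs18 was at 4.23 and 117 (27.7-fold, interval 22.2 to 35.1), and the 16-kDa gamma-zein gz16 at 80.4 and 895 (11.1-fold, interval 10.6 to 11.7). The 15-kDa beta-zein bz15, at 1057 and 3115, and the 27-kDa gamma-zein gz27, at 746 and 2059, were 2.95-fold and 2.76-fold apart and did not pass; beta- and gamma-zeins form the shell in which alpha-zeins collect. By library total bz15 was at 1129 and 1646 CPM and gz27 at 796 and 1088.

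Among other reserve proteins, 1 of 4 detected was higher, against 1.15% of all detected models. b-32, a ribosome-inactivating albumin whose gene is a known target of opaque2, was at 3.24 scaled CPM at 8 DAP and 98.7 at 10 DAP (30.5-fold, interval 23.6 to 39.9). The legumin leg1 was at 1750 and 3775, and the globulins glb3 and glb1 at 10.4 and 43.3 and at 4.13 and 17.4; these 3 did not pass. 

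Genes of the protein body and of folding in the endoplasmic reticulum had 2 higher and 0 lower members among 19 detected, where 1.15% of all detected models were higher, and 0 higher by library total. Their median log2 change was 0.46, and -0.535 by library total, beside -0.01 and -0.81 over all detected models. fl1, a membrane protein of the protein body known from the floury1 mutant, was at 4.08 scaled CPM at 8 DAP and 33.7 at 10 DAP (8.27-fold, interval 6.51 to 10.6). o10, which in maize helps to distribute zeins within protein bodies, was at 11.8 and 53.9 (4.58-fold, interval 3.95 to 5.33). Neither passed by library total, at 4.35 and 17.8 CPM for fl1 and at 12.6 and 28.5 for o10. The chaperones bip1, at 189 and 556, and bip2, at 124 and 394, and the disulfide isomerase pdi, at 1063 and 2254, did not pass. The calreticulin crt2 was at 290 and 231.

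Of the regulators of the storage programme, o2 alone passed among 7 detected, as higher, where 1.15% of all detected models were. It was at 0.0915 scaled CPM in 6 DAP kernels, 36.7 at 8 DAP, 203 at 10 DAP and 251 at 12 DAP, and its step from 8 to 10 DAP was 5.53-fold (interval 5.09 to 6.01). By library total it was at 39.2 and 107 CPM, which did not pass. Its bZIP relatives, the opaque2 heterodimerizing proteins, did not pass on the TMM scale: ohp2 was at 7.74 and 9.62 scaled CPM, and ohp1 at 10.5, 2.33 and then 13.4 at 12 DAP, with 201 and 37 reads at 8 and 10 DAP. By library total ohp1 passed as lower, at 11.2 and 1.23 CPM. o11, a bHLH factor of endosperm development, was at 30.9 and 38.2. nkd1 and nkd2, zinc finger factors of the aleurone and starchy endosperm, were at 44.2 and 63.6 and at 29.6 and 41.7, and by library total at 47.2 and 33.6 and at 31.6 and 22.03 CPM, which did not pass. vp1, the seed maturation factor, had 14 and 27 reads.

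Genes that make ADP-glucose and carry it into the amyloplast formed the starch list with the largest share of passing members. Of 10 detected models 3 were higher, against 1.15% of all detected models, and 0 lower, with a median log2 change of 1.21. By library total 2 of 10 were higher, against 0.6%, and the median was 0.21 beside -0.81 over all detected models. bt2, the small subunit of the endosperm ADP-glucose pyrophosphorylase, was at 10.0 scaled CPM at 6 DAP, 122 at 8 DAP, 2378 at 10 DAP and 2558 at 12 DAP, a 19.4-fold step from 8 to 10 DAP (interval 18.6 to 20.3). agpsl1, another small subunit gene, was at 53.5 and 669 (12.5-fold, interval 11.7 to 13.3). bt1, the ADP-glucose transporter of the amyloplast envelope, was at 121 and 663 (5.46-fold, interval 5.22 to 5.71), and by library total at 130 and 350 CPM, which did not pass. The large subunit sh2, partner of bt2, already stood at 1781 scaled CPM at 8 DAP. It was at 6865 at 10 DAP, 3.85-fold more, a log2 change of 1.95 that fell just short of the rule, and at 16650 at 12 DAP. Thus bt2 and sh2, the subunits of one enzyme, showed different steps, 19.4-fold and 3.85-fold, and their counting intervals were far apart. The hexose kinase hex2 stood at 25.9 and 12.1.

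Of 9 detected sucrose genes 1 passed, as higher, against 1.15% of all detected models. It was the sucrose synthase sh1, which supplies the starch pathway of the endosperm. It was at 137 scaled CPM at 6 DAP, 1394 at 8 DAP, 11770 at 10 DAP and 15450 at 12 DAP (8.45-fold from 8 to 10 DAP, interval 8.34 to 8.56), and it also passed by library total, at 1488 and 6222 CPM. Its relatives did not pass, with sus2 at 162 and 476 scaled CPM and sus1 at 395 and 346. mn1, the cell wall invertase of the basal transfer layer, was at 145 and 90.1. Over the list the median log2 change was -0.19. Of 10 detected sugar transport genes 1 was higher at 10 DAP, again against 1.15%. This was sfp1, at 5.85 and 37.2 scaled CPM and back at 4.40 at 12 DAP. The sucrose transporters sut1, sut2 and sut4 were at 14.7 and 31.6, at 59.1 and 50.8, and at 33.8 and 36.0.

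Of the 11 enzymes that build the starch polymer, 2 were higher, against 1.15% of all detected models, and 0 lower. By library total 0 of the 11 were higher, against 0.6%. The median log2 change was 0.84 by TMM and -0.07 by library total, beside -0.01 and -0.81 over all detected models. wx1, the granule-bound synthase that makes amylose, was at 89.7 scaled CPM at 8 DAP and 726 at 10 DAP (8.09-fold, interval 7.69 to 8.52). ss1, a soluble starch synthase, was at 133 and 534, and its log2 change of 2.00 lay just inside the rule. By library total neither passed, wx1 at 95.8 and 384 CPM and ss1 at 142 and 282. The branching enzyme SBEIIb was at 529 and 1186, the phosphorylase pho1 at 789 and 1654, the synthase sugary2 at 84.6 and 151, the synthase du1 at 459 and 602 and the debranching enzyme zpu1 at 7.84 and 24.2. By library total du1 was at 490 and 318 CPM and sugary2 at 90.4 and 79.7, and neither passed.

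**Figure D3:**
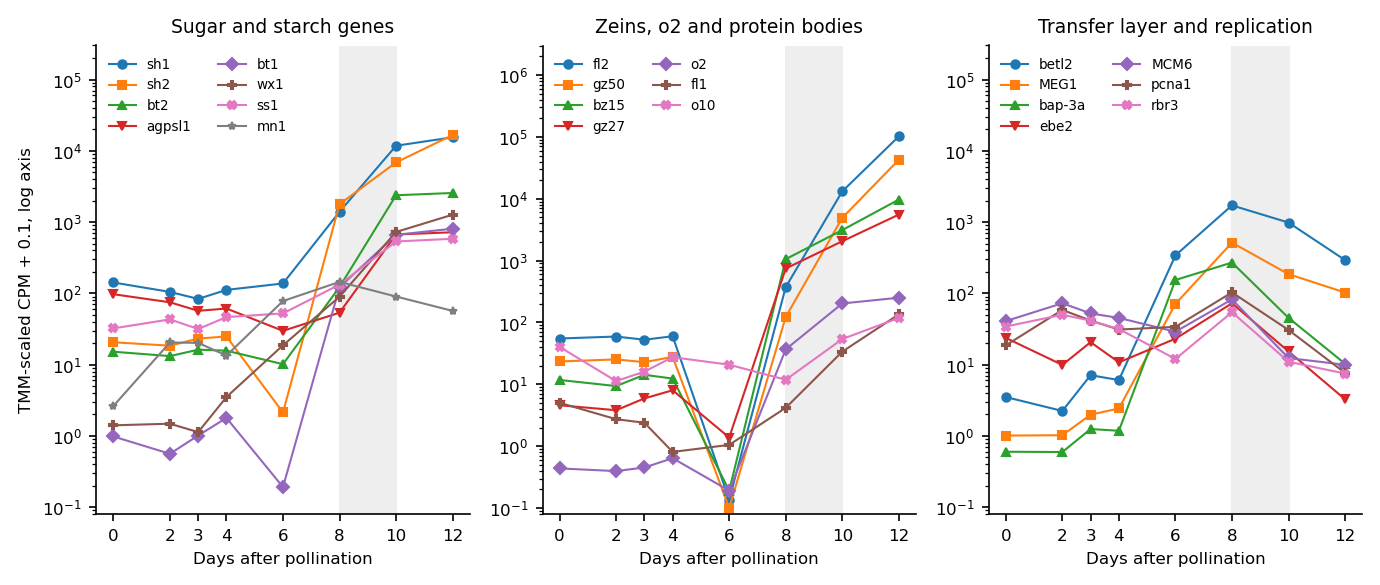
Level of selected genes in every stage, in TMM-scaled CPM + 0.1 on a log axis, 1 value per stage (0 DAP is the pair of technical replicates pooled); the shaded band is the interval from 8 to 10 DAP, and stages up to 6 DAP are whole kernels. Apart from mn1, the storage and starch genes had higher values at 10 than at 8 DAP, while genes of the transfer layer and of DNA replication had their highest value of the endosperm stages at 8 DAP.

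Enzymes of pyruvate and phosphoenolpyruvate metabolism had no passing member by TMM among 15 detected, where 2.01% of all detected models passed. By library total 1 was lower, against 3.28%. Their median log2 change was 0.55, or -0.37 by library total, beside -0.01 and -0.81 over all detected models. CYPPDKZM2, a pyruvate orthophosphate dikinase, was at 2258 and 7231 scaled CPM, and C4ppdkZm1, another dikinase gene, at 283 and 846. Of 20 glycolysis and fermentation genes 1 was higher at 10 DAP, against 1.15% of all detected models. This was pdc2, a pyruvate decarboxylase of ethanol fermentation, at 11.3 and 64.1 (5.68-fold, interval 4.90 to 6.61). The glyceraldehyde phosphate dehydrogenases gpc4 and gpc3 were at 4273 and 5923 and at 2424 and 3676 scaled CPM, and by library total at 4563 and 3130 and at 2589 and 1943 CPM; neither passed.

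Of 19 amino acid genes 1 was higher at 10 DAP, against 1.15% of all detected models. This was lkrsdh1, at 34.3 and 189 scaled CPM (5.52-fold, interval 5.07 to 6.01) and 585 at 12 DAP. It encodes the bifunctional enzyme that breaks lysine down, so it does not do what the list's name, amino acid synthesis, says. als1, an acetolactate synthase of branched-chain amino acid synthesis, was at 165 and 654, a log2 change of 1.99 just outside the rule. The opaque7 gene o7, an acyl-activating enzyme, was at 11.8 and 16.9 scaled CPM and at 12.6 and 8.94 CPM by library total, and did not pass on either scale.

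Genes of the translation machinery had no passing member. Of 25 detected ribosomal protein genes 0 passed in either direction, where 2.01% of all detected models did. Of the 25, 13 lay above and 12 below 0, with a median log2 change of 0.01. rps27 was at 460 and 682 scaled CPM. The 11 translation factors also had 0 calls and a median of 0.01. At a share of 2.01%, 0 calls in lists of 25 and 11 does not set them apart. By library total the medians were -0.997 and -1.01 beside -0.81 over all detected models, and again 0 members passed, against 3.88% of all.

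Genes of the basal transfer layer stood on the low side at 10 DAP. All 14 detected models were below 0 on the log2 scale, where 17676 of 35002 detected models were, and the list's median was -1.30 beside -0.01 over all. The summed level was 1224 scaled CPM in 6 DAP kernels, 6236 at 8 DAP, 3167 at 10 DAP and 2000 at 12 DAP. By the rule 2 of 14 were lower, against 0.869% of detected models, and by library total 10 of 14 were, against 3.28%.

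The members that passed were bap-3a and ebe2. bap-3a, a basal layer antifungal peptide gene, was at 154 scaled CPM at 6 DAP, 270 at 8 DAP, 45.2 at 10 DAP and 10.2 at 12 DAP, 5.98-fold lower at 10 than at 8 DAP (interval 5.53 to 6.47). ebe2, a gene of the embryo sac and the basal endosperm, was at 72.4 and 15.2 (4.76-fold lower, interval 4.15 to 5.48). Others were less far apart: MEG1, a maternally expressed transfer layer peptide, at 515 and 186, betl2 at 1714 and 984, betl1 at 140 and 92.4, and betl-9 at 1063 and 930. tcrr-1, a response regulator of transfer cells, was at 199 and 96.7. How much of the basal layer each dissection kept was not measured, and its part in these values was not tested.

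The other outer layers had no passing member, in lists of 4 and 5 detected models where 2.01% of all detected models passed. Lists of that size cannot show whether fewer passed. The 4 models of the embryo-surrounding region had 0 calls and a summed level of 132 and 146 scaled CPM, with esr2 at 89.2 and 108. The 5 detected aleurone genes had 0 calls and a median log2 change of 0.29: the calpain dek1, needed for aleurone fate, was at 125 and 153, the receptor kinase cr4 at 15.9 and 17.9, and Sal1, a negative regulator of aleurone cell number, at 42.9 and 38.6. By library total the aleurone median was -0.72 beside -0.81 over all detected models. No test of the difference between the layers could be made with 1 library a stage.

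Genes of DNA replication lay below 0 on the log2 scale in all 14 detected members, with a median of -1.26 and 2 members past the rule as lower, against 0.869% of detected models. Their summed level was 663 scaled CPM at 8 DAP and 240 at 10 DAP. MCM6, a subunit of the replicative helicase, was at 82.1 and 12.3 (6.70-fold lower, interval 5.77 to 7.81), and RNRS3, a small subunit of ribonucleotide reductase, at 39.2 and 8.62 (4.55-fold lower, interval 3.79 to 5.50). The helicase subunit MCM7 was at 113 and 33.5, the sliding clamp pcna1 at 103 and 30.6, and orc3, of the origin recognition complex, at 38.2 and 30.7. By library total 8 of the 14 passed as lower, against 3.28%.

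Mitotic genes were less uniform. Of 20 detected, 2 were lower, against 0.869% of detected models, 0 were higher, 15 lay below 0 and the median log2 change was -0.64. By library total 5 of the 20 were lower, against 3.28%. On that scale 19 lay below 0, where 29355 of 35002 detected models did, and the median was -1.32 beside -0.81 over all. The passing members were the cyclins cyc3, at 10.7 and 1.45 scaled CPM (7.41-fold lower, interval 4.80 to 12.0), and cyclin9, at 21.9 and 3.899 (5.63-fold lower, interval 4.30 to 7.47). The cohesin subunit SMC3 was at 172 and 154 and the kinase partner cks at 109 and 140. All 7 histone genes lay below 0, with 0 past the rule, a median of -0.79, and histone2b1 at 138 and 93.6 and his2b2 at 176 and 85.9. Among 5 retinoblastoma and E2F genes, the retinoblastoma-related gene rbr3 was lower, at 54.3 and 10.9 (4.99-fold, interval 4.24 to 5.89). Its relatives rrb1, at 37.6 and 41.5, and rrb2, at 68.3 and 60.1, did not pass. By library total rrb1 was at 40.1 and 21.9 CPM and rrb2 at 72.9 and 31.8, and again neither passed.

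**Figure D4:**
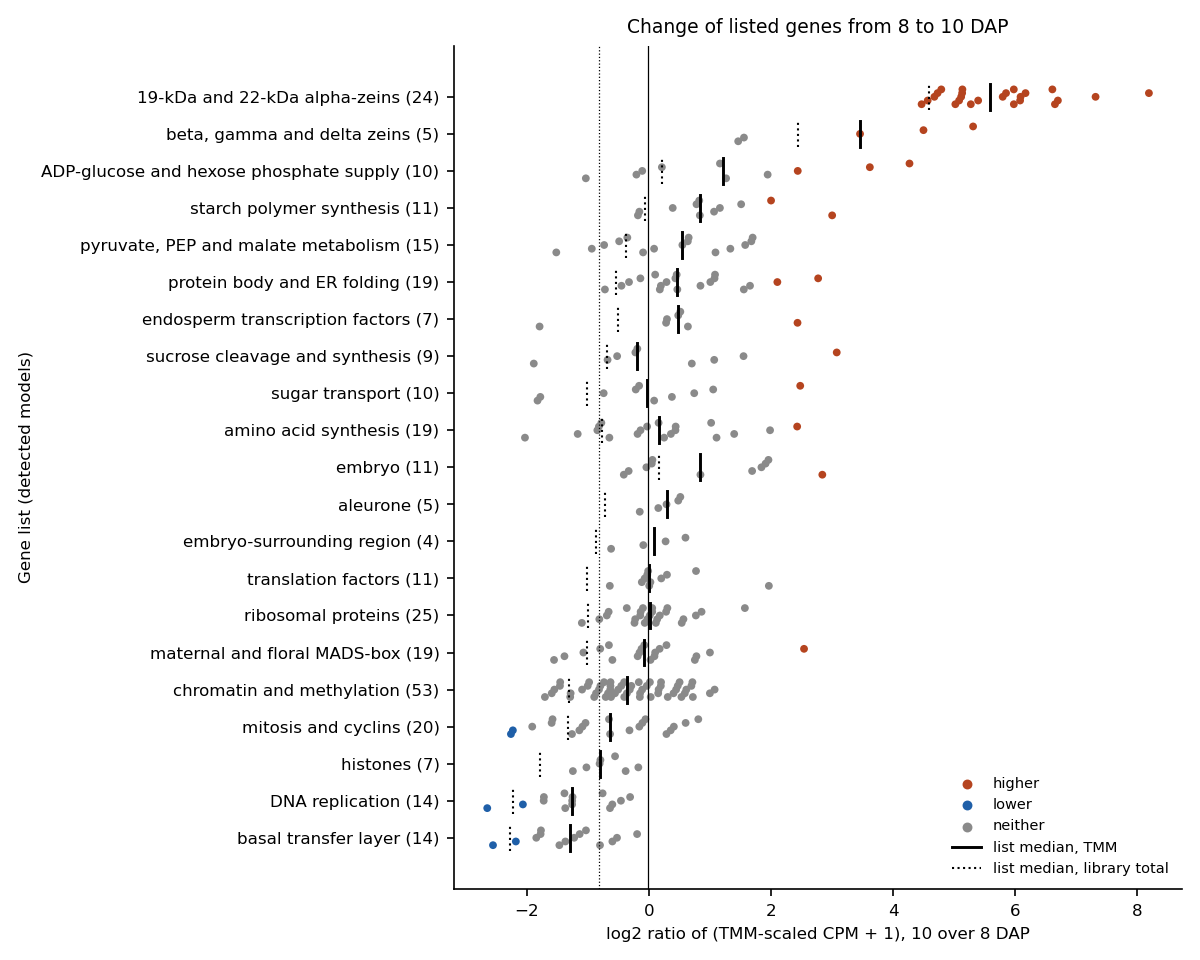
Log2 ratio of (TMM-scaled CPM + 1) at 10 over 8 DAP for each detected member of the lists named on the axis, 1 point per model; red and blue points passed the rule of size, short solid bars are list medians by TMM and dotted bars by library total, and the long lines are the medians of all detected models. Alpha-zeins stand farthest to the right with a median of 5.60, and the basal transfer layer and DNA replication farthest to the left with -1.30 and -1.26, on both scales.

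Chromatin genes did not pass in either direction on the TMM scale: of 53 detected, 0 were called, where 2.01% of all detected models were, and the median log2 change was -0.36. By library total 6 of the 53 were lower, against 3.28% of detected models, and the median was -1.30 beside -0.81 over all. Of the 8 Polycomb and imprinted genes 0 passed. NRP1, an imprinted gene expressed from the maternal allele, was at 80.9 and 226 scaled CPM, fie1, the endosperm Polycomb gene expressed from the maternal allele, at 116 and 90.5, and fie2 at 7.21 and 2.70. Of 15 cytoskeleton genes 0 passed by TMM, with a median of -0.62. By library total 4 were lower, against 3.28%, with a median of -1.63 beside -0.81 over all. Of 30 expansin and cell wall genes 1 was lower, against 0.869% of all detected models. This was CSLD1, a cellulose synthase-like gene, at 13.9 and 1.95 scaled CPM (7.13-fold).

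Among hormone genes, where 1.15% is again the share of all detected models called higher, the auxin list of 34, the gibberellin and abscisic acid list of 22 and the oxylipin list of 17 had 1 higher member each. In the auxin list, TAR3, a tryptophan aminotransferase-related gene of auxin synthesis, was higher, at 0.0366 scaled CPM at 6 DAP, 13.01 at 8 DAP, 76.5 at 10 DAP and 123 at 12 DAP (5.88-fold from 8 to 10 DAP, interval 5.12 to 6.76). The flavin monooxygenase yuc, of the same pathway, was at 231 and 146, and the list's median was -0.24. In the gibberellin and abscisic acid list, PYL6, of the abscisic acid receptor family, was higher, at 2.19 and 52.1 (23.8-fold, interval 17.4 to 33.2), with 42 and 829 reads, and it stayed at 58.2 at 12 DAP. In the oxylipin list, opr5, an oxophytodienoate reductase, was at 6.32 and 43.6 (6.89-fold). Of 21 cytokinin genes 0 passed by TMM, and 3 were lower by library total, against 3.28%.

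Transcription factor families outside the storage regulators had 1 or no passing member each by TMM, where 2.01% of all detected models passed. EREB46, an AP2/ERF factor, was at 1.41 and 11.9 scaled CPM, with 1.58 at 12 DAP. bZIP9 was lower, at 10.9 and 1.51, and the homeobox gene HB45 was lower, at 27.8 and 5.60 (4.97-fold, interval 3.96 to 6.29). By library total 6 of 19 homeobox genes were lower, against 3.28% of all detected models. The MADS-box gene si1, a floral identity gene, was higher, at 1.88 and 15.8 (8.39-fold, interval 5.90 to 12.3), while the summed level of its list was 543 and 424. nac4, of the NAC family, was at 125 and 449, a log2 change of 1.83 that did not pass. MYB, WRKY, SBP and bHLH lists had 0 calls each.

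Of 16 detected defence genes 2 were higher, 1 was lower and 13 did not pass. Over all detected models 1.15% were higher and 0.869% lower. mpi, a protease inhibitor, was higher, at 26.5 and 241 scaled CPM (9.10-fold, interval 8.29 to 10.0), as was b-32, which belongs to that list too. The cystatin cc8 was lower, at 63.2 at 6 DAP, 87.9 at 8 DAP, 12.4 at 10 DAP and 4.93 at 12 DAP (7.06-fold from 8 to 10 DAP, interval 6.09 to 8.22). gst30, the 1 higher model among 10 detected glutathione S-transferases, had 2 reads at 8 DAP and 468 at 10 DAP, 282-fold (interval 77.5 to 2332). It was at 2.81 scaled CPM at 12 DAP. The aquaporin pip2e, the 1 higher model among 8 detected, was at 48.0 and 215 (4.47-fold, interval 4.15 to 4.81). ole17, an oleosin on both the lipid and the embryo list, was at 2.61 and 24.9 (9.53-fold, interval 7.09 to 13.1). It was the 1 higher model among 13 detected on the lipid list and 11 on the embryo list. Over the embryo list 8 of 11 detected models lay above 0, where 17326 of all 35002 detected models did. The list's median log2 change was 0.85 beside -0.01 over all, and its summed level was 119 and 365. The part of embryo tissue in the ole17 values was not tested.

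Named models in no list made up the rest. nrx1, a nucleoredoxin, was at 23.1 and 193 scaled CPM, BCH2, a beta-carotene hydroxylase, at 9.199 and 47.9, and P4H4, a prolyl hydroxylase, at 3.40 and 23.2; all 3 were higher at 10 DAP, as were scl1 at 22.4 and 284, GFT1 at 1.78 and 17.0, mde1 at 5.49 and 39.2, and a model named only GTPase at 9.36 and 40.6. Lower were tbp1, at 14.8 and 0.755 with 284 and 12 reads and 28.8 scaled CPM at 12 DAP, kin11, at 16.5 and 1.95, and ankyrin-1, at 39.5 and 7.55. tbp1 thus had its lowest value of the endosperm stages at 10 DAP. Just outside the rule were als1, tif1, a translation factor at 38.9 and 155, glb3 and sh2, at log2 changes of 1.95 to 1.99, and on the lower side HP1 of the cytokinin list, at 102 and 24.8 with a log2 change of -2.00. Just inside it were ss1 among the higher ones and RNRS3, at a log2 change of -2.06, among the lower.

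GIF2 was the named model with the largest ratio of (scaled CPM + 1) outside the zeins. It belongs by name to the coactivators of growth-regulating factors, and it was at 48.3 scaled CPM at 6 DAP, 42.9 at 8 DAP, 1335 at 10 DAP and 15230 at 12 DAP. In the RefSeq name table its record lies among models that rose with it: GRMZM2G453684, the next record, had 433 and 21773 reads at 8 and 10 DAP, GRMZM2G154394, 3 records away, 72 and 38376, and GRMZM5G837872, 2 records to the other side, 9 and 14670. Whether the reads counted for GIF2 are its own was not tested. GRF4, of the same list, was at 4.13 and 6.23.

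Most called models carry no usable name, 344 of the 401 higher and 290 of the 304 lower. The most counted of these unnamed models at 10 DAP, beside the named z1A1_5 at 45480 scaled CPM, were AF546188.1_FG007, at 1934 scaled CPM at 8 DAP and 49370 at 10 DAP, AF546188.1_FG005, at 1782 and 48280, and GRMZM2G059620 and GRMZM2G586611, both at 1613 and 45470. The largest ratio of (scaled CPM + 1) was that of GRMZM2G453738, with 30 reads at 8 DAP and 54760 at 10 DAP. The largest fall on that scale was that of GRMZM2G405577, with 832 and 4 reads, or 43.5 and 0.252 scaled CPM (173-fold lower, interval 67.3 to 636). Without the added 1, GRMZM2G471367 fell farther, with 553 and 1 reads (460-fold lower, interval 82.15 to 18190). Of the higher models 27 had no read at 8 DAP; GRMZM2G421509, chosen after its values were seen, had 0 reads at 8 DAP, 2084 at 10 DAP and again 0 at 12 DAP, at least 836-fold higher at 10 DAP against a floor of 3 reads in the 8 DAP library. Of the lower models 8 had no read at 10 DAP.

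The comparison of 12 with 10 DAP endosperm shares the 10 DAP library, so its values are set side by side with those above and were not correlated with them. From 10 to 12 DAP, 298 models (0.853%) were higher and 228 (0.653%) lower on the TMM scale. fl2 went from 13170 to 102000 scaled CPM, gz50 from 4913 to 42700 and wx1 from 726 to 1268. bt2, at 2378 and 2558, agpsl1, at 669 and 719, and ss1, at 534 and 582, were close to level in that interval on the TMM scale. The TMM factors were 0.528 at 10 DAP and 0.156 at 12 DAP, so ratios of 12 to 10 DAP are smaller by library total. By library total bt2, agpsl1, ss1 and wx1 were lower at 12 than at 10 DAP, while fl2 and gz50 were still higher.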

How the data were processed

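The submitters deposited raw read counts per gene model, 1 table per library (the file headers name a model and a stage). Per the submitters' processing notes, the tool bedtools took part, with no role or version stated. Not given in the sources used here are the aligner, the genome build, the annotation and the treatment of reads that match several models. Every column of the deposited count tables was mapped to a sample (0 left over).

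TMM factors were computed in edgeR 4.0.16 (R 4.3.3) over the 9 libraries, the pair of 0 DAP technical replicates pooled afterwards for display. The factors were 1.07 at 8 DAP and 0.528 at 10 DAP, for effective sizes of 19132300 and 15901920 reads. Calls and intervals were computed in Python 3.11.15 with scipy 1.17.1 and numpy 2.4.6, tables with pandas 2.3.3, figures with matplotlib 3.10.9. A model was called by a rule of size: (scaled CPM + 1) at least 4-fold apart, the higher value at least 10, and an exact conditional binomial 95% interval of the ratio of scaled counts that excludes 1. The rule was tested on simulated counts. With 1 library a stage no p-value was computed. A ratio against 0 reads was bounded with a floor of 3 reads. Alternatives were library totals, DESeq2 1.42.0 size factors, TMM over the pair, totals without zeins or without the 100 most counted models, other ratios, minimums and pseudocounts, thinning, and 1 model per group of like counts.

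The count tables give model IDs only. Names came from a RefSeq table of the Zm-B73-REFERENCE-NAM-5.0 assembly, in which 18787 IDs were found and 2235 models had a usable name carried by no other model; no coordinates were taken from it. Genes were put in 59 lists by name. The text names the 15 higher and 15 lower named models with the largest ratio (14 lower existed), passing list members and the 2 with the highest level at 10 DAP, a list of key genes, and the 5 models with the highest level at each stage; other list members and models that show a range were chosen after their values were seen. The comparison and the lists were chosen with earlier results of these data known.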

Additional observations from a re-analysis of the deposited data

How the results depend on the processing

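No paired analysis was possible because each endosperm stage is 1 library. The scaling set the balance of the calls: 401 models were higher and 304 lower by TMM, 210 and 1147 by library total, and 246 and 752 by totals without the zeins. All 210 were among the 401 and all 304 among the 1147, which the direction of the shift fixed in advance. DESeq2 size factors (413 and 299), TMM over the pair of libraries (353 and 237), totals without the 100 most counted models (401 and 454), a pseudocount of 0.1 (444 and 360), thinning of 10 DAP to the 8 DAP total (401 and 305) and 1 model per group of like counts (367 and 299) stayed within 1.5 times. Without a minimum level 613 were higher and 587 lower, with a minimum of 50 scaled CPM 216 and 73, and at a ratio of 2 instead of 4 1268 and 1312. The technical replicates differed in 77 models by TMM, 70 by DESeq2 size factors and 142 by library total; the last 2 settings were chosen after seeing the data. The cause of the differences between scalings was not tested. Taking the named models of largest ratio and the key genes, 56 in all, no called one changed direction under the 5 other scalings. For library totals this was fixed in advance, since a call needs a 4-fold change and that scaling shifts ratios by 2.02-fold. Under library totals 5 lost their call, 2 gained one and 9 uncalled ones changed sign. Over all 57 higher models with a name, library totals removed 20 from the calls. Of the gene lists with 5 or more detected members, 33 had a median above that of all detected models, and 30 to 33 did under the other scalings. The spread between ears or plants is unknown with 1 biological sample a stage, so every count of calls compares 2 libraries, not 2 stages. At the depth reached, 3 reads stand for 0.157 scaled CPM at 8 DAP and 0.189 at 10 DAP.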

Other observations

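The unnamed models with the largest rises had counts in fixed proportions, a pattern chosen after the values were seen. At 10 DAP GRMZM2G453773 had 10952 reads, and GRMZM2G154417, GRMZM2G154465 and GRMZM2G453738 had 1.5, 4.00 and 5.00 times as many; at 12 DAP the same multiples were 1.5, 4.00 and 5.00. GRMZM2G122873 had 9780 reads at 10 DAP, and GRMZM5G837872, GRMZM2G161169 and GRMZM2G529003 had 1.5, 2.00 and 3.00 times as many, and 1.5, 2.00 and 3.001 times at 12 DAP. At 8 DAP these 8 models had 6 to 30 reads. Counting in units of 5476 reads at 10 DAP and 21565 at 12 DAP, 27 of the 401 higher models lay within 1% of the same whole number of units, from 1 to 10, at both stages. Their reads summed to 0.00467% of the library at 8 DAP and 1.11% at 10 DAP. In units of 4890 and 21494 reads 18 of the 401 did, with 0.00127% and 0.553% of the reads. Counts that are exact multiples of each other across libraries are not independent values, so the 401 higher models stand for fewer separate read sets than models.

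Across the whole table, 1030 models in 444 groups had counts within 2% of another model's in every library, and they held 3.89% of the reads at 8 DAP and 23.3% at 10 DAP. Of these, 53 were among the higher and 10 among the lower models. Shares of counted reads are thus shares of counts and not of distinct reads.

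The alpha-zein list summed to 1205 to 1311 scaled CPM in the kernels of 0 to 4 DAP, with reads for all 24 models, but to 0.823 in 6 DAP kernels, where 16 of the 24 models had no read. The 8 DAP value of 9579 follows that lowest value of the course.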
